A study of Bos taurus with 8 samples.

Results

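Fibro-adipogenic progenitors (FAPs) grown in sorted FAP cultures were compared between passage 5 (P5) and passage 2 (P2) of serum-free expansion. The cells were those that the deposited cell table labels FAPs and assigns to donor 4, 7 or 8, the 3 cattle whose cells had been sorted for FAPs. There were 6486 such cells of 36129 in the series, 2532 at P2 and 3954 at P5. Bovine muscle was digested, FAPs were purified by flow cytometry from short-term cultures with antibodies to ITGA5, ITGA7, JAM-1 and CD45, and the purified cells were expanded on collagen I in serum-free growth medium. Donors 4 and 7 were female calves and donor 8 was an adult male, all Belgian Blue cattle, and no agent or genetic change separated the passages. Cells of all donors present at a passage were pooled into 1 droplet library and returned to their donor by genotype, so passage and library cannot be told apart. The same 2 libraries held FAPs of unsorted cultures from donors 1, 2 and 9 (donors 1 and 9 adult females, donor 2 a female calf). These cultures were grown on fibronectin and gave 4588 FAPs for comparison. Satellite cells of sorted satellite cell cultures (SC cultures), grown on laminin, came from donors 5, 6 and 10. Donor 5 was a female calf, donor 6 an adult male and donor 10 a male calf, also Belgian Blue. They differ from the FAPs in animal and coating as well as cell type.

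FAPs are mesenchymal stromal cells of the muscle interstitium, recognised by the receptor PDGFRA. In muscle they lay down collagen-rich matrix, secrete factors that act on satellite cells (SCs, the myogenic stem cells), and can give rise to adipocytes or to matrix-producing myofibroblasts. For cultured meat they are of interest as a source of fat and connective tissue.

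The deposited labels were set beside marker levels. Levels are given in CPM, UMI counts scaled to a common library total (a UMI is a molecular tag that marks 1 captured RNA molecule), after summing the raw UMIs of all FAPs of 1 donor at 1 passage. PDGFRA stood at 258, 480 and 718 CPM in donors 4, 7 and 8 at P2 and at 455, 580 and 659 CPM at P5. The groups overlapped, and the log2 fold change of 0.32 did not pass the test (edgeR adjusted p = 0.234). ITGA5, the integrin subunit used to sort FAPs, was at 188, 160 and 116 CPM at P2 and at 104, 102 and 85.2 CPM at P5, a log2 fold change of -0.65 that is under the fold threshold used here (edgeR adjusted p = 0.0141). MYF5, a myogenic factor of SCs, was low: scaled to library size alone, it averaged 3.10 ± 0.542 CPM in the FAPs at P2 and 5.49 ± 1.27 at P5, against 152 ± 5.81 and 167 ± 27.6 CPM in the SCs of the SC cultures of the same libraries (SD, n = 3 donors). In the FAPs MYF5 was 0.92 higher at P5 on the log2 scale, under the fold threshold (edgeR adjusted p = 0.0351), and it was called among cells called G1, at 1.03 (edgeR adjusted p = 0.0157). PTPRC and RGS5, markers of leukocytes and mural cells, had 0 UMIs in all 6 sums. Other members of their lists were present. CD14 averaged 14.7 CPM at P2 and 14.4 CPM at P5, and ACTA2 502 and 311 CPM.

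Cells labelled SCs made up 6.05% of the FAP-culture cells at P2 (95, 50 and 18 cells in donors 4, 7 and 8) and 0.503% at P5 (10, 5 and 5 cells). They were left out by the label. Over the 16 genes of the satellite cell and myogenic list, the summed level in the FAPs was 47.6 to 56.2 CPM at P2 and 59.97 to 70.38 CPM at P5. Of its 11 tested members 0 were called, and 3 were higher at an adjusted p under 0.05 alone. Each sum held 17945330 to 30877722 UMIs, and the median cell held 20119 to 31290 UMIs at P2 and 18462 to 22349 at P5. Mitochondrial UMIs were 2.92% to 3.02% of the median cell at P2 and 3.23% to 3.63% at P5. Of the kept barcodes, 24 occurred in both libraries, 5 of them among these FAPs.

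Genes were tested by edgeR's quasi-likelihood test with the donor as a block, and a gene was called at a Benjamini-Hochberg adjusted p under 0.05 and a change of more than 1 on the log2 scale. Of 11791 genes tested, 220 were higher at P5 (1.87%) and 426 were lower (3.61%). At an adjusted p under 0.05 alone, 1221 were higher and 1390 were lower. All 646 called genes moved in 1 direction in 3 of 3 donors, but the paired test favours such genes, so this is no separate support. For 521 of them the values at P2 and P5 did not overlap, as was so for 34.7% of all genes tested. With the donor block left out of the model, 46 genes were higher and 48 lower. Without donor 7 the counts were 141 higher and 249 lower, and with only the cells called G1 they were 192 and 245. The 176 genes named by rule included 100 called ones, and 15 of these were called under all 11 alternative settings: SCN1A, CYP27B1, COL11A1, TFAP2A, ASPN, ADAMTS1 and ADAMTS4, which rose, and KLF15, LTBP2, TAGLN, ID1, NR4A1, FOS, LIMS2 and FOSB, which fell.

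Both chains of type I collagen and the chain of type III collagen rose. COL1A1, the major chain of type I collagen, was at 3887, 8274 and 9314 CPM in donors 4, 7 and 8 at P2 and at 16100, 24070 and 21860 CPM at P5. Every P5 value lay above every P2 value, and donor 4 was the lowest at both passages. The difference was 3.05-fold, a log2 fold change of 1.61 with an SE of 0.16 (edgeR adjusted p = 0.00619). Each SE given here is derived from the F statistic of the test and is not the spread of the donors' own changes. The partner chain COL1A2 went from 3332, 6409 and 7817 CPM to 11940, 17440 and 16230 CPM, 2.73-fold higher. COL3A1, the chain of the thinner type III fibrils, was at 3357, 6418 and 9210 CPM and then at 10320, 14810 and 15730 CPM. It was 2.30-fold higher, and without donor 4 its log2 fold change of 0.99 was just short of the threshold. In the SCs of the SC cultures, scaled to library size alone, COL1A1 averaged 1358 ± 1075 CPM at P2 and 3585 ± 1016 CPM at P5 (SD, n = 3 donors). COL1A2 averaged 2387 ± 1377 and then 7042 ± 148 CPM there, and COL3A1 1769 ± 1049 and then 2409 ± 128 CPM. The change in SCs was not tested. COL1A1, COL1A2 and COL3A1 are also members of the FAP marker list, in which 3 of the 15 tested members rose and 1, SCARA5, fell. SCARA5, a scavenger receptor of stromal cells, was not called without donor 7 or without donor 8.

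COL11A1, a minor chain of collagen fibrils, rose most among the tested interstitial collagens. It was at 85.8, 123 and 83.2 CPM at P2 and at 510, 621 and 563 CPM at P5, 5.88-fold higher. After each cell was thinned to 10000 UMIs, COL11A1 was seen in 42.1%, 36.4% and 27.8% of cells at P2 and in 88.3%, 75.8% and 82.2% at P5. In the SCs of the SC cultures it was seen in 77.3% of cells at P2 and 90.0% at P5. COL5A2, a type V chain that helps set fibril diameter, was 1.01 higher on the log2 scale (0.96, under the threshold, without donor 4), and COL16A1, a fibril-associated chain, 1.25 higher. Of 17 interstitial collagen genes 15 were tested, 6 rose and 1 fell, with a median log2 fold change of 0.96 against 0.0086 over all genes tested. The gene that fell was COL8A1, a short-chain collagen of vessel walls, at 53.7, 56.0 and 71.2 CPM and then 15.6, 18.1 and 9.11 CPM. It was not called without donor 4 (edgeR adjusted p = 0.0944).

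**Figure D1:**
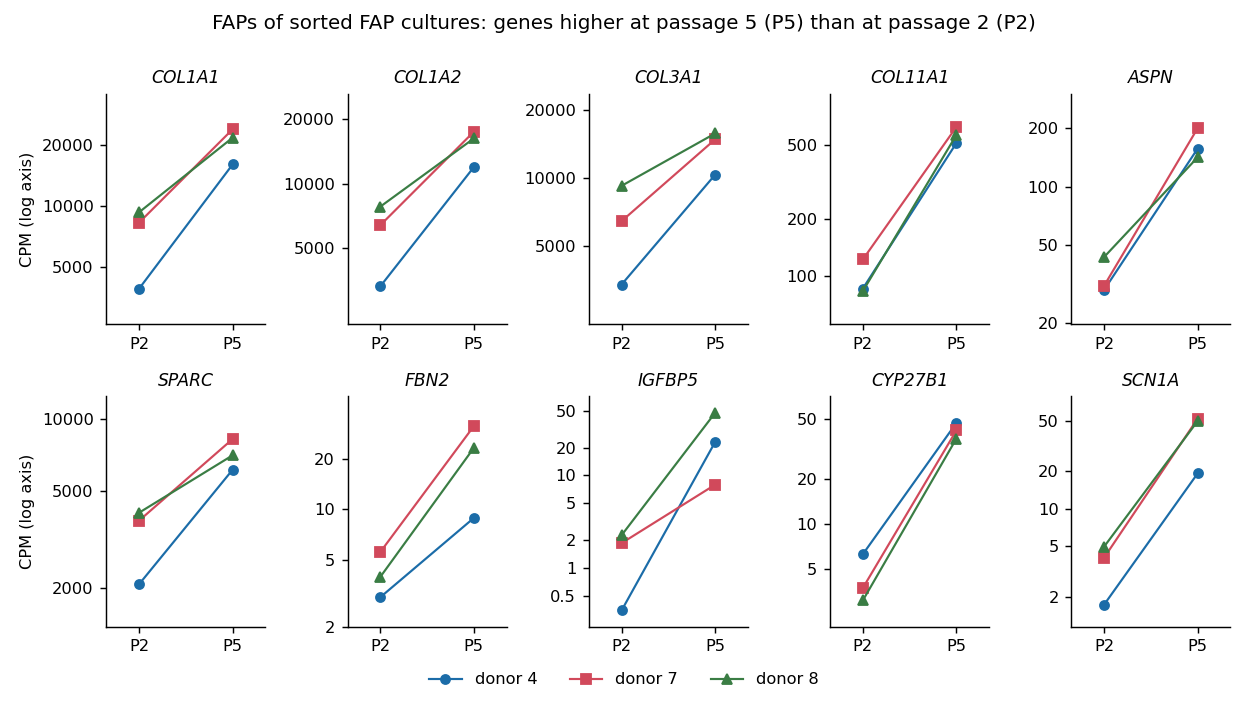
CPM (log axis, a separate range in each panel) of 10 genes at P2 and P5, with 1 line per donor over sums of its FAPs. COL1A1 rose from 3887, 8274 and 9314 to 16100, 24070 and 21860 CPM, and in every panel each donor's line rises.

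Genes that process collagen showed smaller differences, with a median log2 fold change of 0.36. Of 22 listed genes for hydroxylation, folding, cleavage and crosslinking, 20 were tested and 0 were called in either direction, while 11 were higher and 2 lower at an adjusted p under 0.05 alone. The 2 members with the highest level show this: P4HA2, a prolyl hydroxylase subunit, went from 1044, 1117 and 991 to 1727, 1316 and 1311 CPM, and SERPINH1, the collagen chaperone HSP47, from 897, 877 and 643 to 861, 907 and 851 CPM. The SERPINH1 groups overlapped.

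Small leucine-rich proteoglycans, which coat collagen fibrils and set their spacing, rose in 4 of 12 tested members and fell in none, with a median log2 fold change of 0.70. ASPN (asporin) was at 29.5, 31.0 and 43.5 CPM at P2 and at 157, 199 and 141 CPM at P5, 4.81-fold higher with no overlap. FMOD (fibromodulin) was 2.34-fold and PRELP 2.21-fold higher, but both changes were under the fold threshold without donor 4 (log2 fold changes of 0.79 and 0.93), and FMOD was also not called without donor 7. OGN (osteoglycin) was 2.07-fold higher and was not called without donor 7, where its log2 fold change was 0.85. LUM (lumican) and DCN (decorin) had log2 fold changes of 0.74 and 0.57, under the threshold.

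Among matricellular and adhesive glycoproteins 4 of 19 tested members rose and 0 fell. SPARC, a collagen-binding glycoprotein, was at 2065, 3784 and 4080 CPM and then at 6144, 8231 and 7048 CPM. Its groups did not overlap, and it was 2.24-fold higher (without donor 4, a log2 fold change of 0.96). THBS2, a thrombospondin, went from 29.6, 19.1 and 14.1 to 57.7, 55.2 and 39.4 CPM. CCN4, a Wnt-induced secreted protein, went from 10.7, 8.79 and 10.6 to 23.1, 19.9 and 19.3 CPM, with a log2 fold change at the threshold without donor 7. It was not called when scaled by library size alone or when the sums were thinned to the smallest. TNC (tenascin-C) was the least even, at 594, 256 and 120 CPM and then 1689, 324 and 483 CPM, and was not called without donor 4 or without donor 8 (edgeR adjusted p = 0.32 and 0.136). FN1 (fibronectin) had a log2 fold change of 0.70, under the threshold.

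Of 17 elastic fibre and microfibril genes, all tested, 1 rose and 3 fell; at an adjusted p under 0.05 alone 4 were higher and 4 lower, and the median log2 fold change was -0.07. FBN2, the fetal fibrillin, rose from 3.00, 5.56 and 3.96 to 8.87, 31.2 and 23.2 CPM. MFAP4, which binds elastic fibres, fell from 22.8, 18.4 and 29.3 to 2.59, 5.86 and 2.31 CPM, 6.80-fold lower, although the 2 donors left without donor 4 gave an edgeR adjusted p of 0.137. LTBP2, a latent TGF-beta binding protein of microfibrils, fell from 134, 169 and 206 to 67.4, 73.7 and 72.2 CPM. LTBP4 also fell, and lost its call without donor 7 or without donor 8 (edgeR adjusted p = 0.061 and 0.0791). In the basement membrane list 2 of 17 tested members fell and 0 rose, with a median log2 fold change of 0.12. They were LAMA2, the laminin alpha chain of muscle basement membrane, at 16.03, 23.7 and 36.2 and then 7.18, 12.6 and 11.6 CPM, and COL15A1, at 10.5, 3.02 and 9.54 and then 2.33, 1.36 and 1.81 CPM. COL4A1, the main network collagen, had a log2 fold change of 0.12.

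Among matrix proteases and their inhibitors 2 of 22 tested members rose and 2 fell. ADAMTS1 and ADAMTS4, proteases that cut aggrecan and versican, rose: ADAMTS1 from 28.4, 40.1 and 41.7 to 109, 165 and 113 CPM, and ADAMTS4 from 9.69, 10.9 and 13.0 to 28.9, 35.3 and 34.4 CPM. The inhibitors TIMP3 and TIMP4 fell. TIMP3 was at 259, 185 and 156 CPM at P2 and at 109, 55.7 and 46.3 CPM at P5, 2.98-fold lower, with no overlap. The gelatinase MMP2 stood at 1943 to 2581 CPM at P2 and 2093 to 2175 CPM at P5, a log2 fold change of -0.02.

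Contractile genes fell in 3 of 18 tested members and rose in none, and 11 of the 18 were lower at an adjusted p under 0.05 alone. TAGLN (transgelin), an actin-binding protein of smooth muscle and myofibroblasts, was at 72.1, 63.7 and 65.2 CPM and then at 35.7, 19.2 and 22.8 CPM. The groups were apart, and the fall was 2.66-fold. CNN1 (calponin) fell from 56.4, 25.1 and 17.1 to 20.5, 5.21 and 4.46 CPM; the groups overlapped because donor 4 was high at both passages. ACTG2, a smooth muscle actin, was 2.46-fold lower but was not called without donor 7 or without donor 8 (edgeR adjusted p = 0.231 and 0.0864). ACTA2, the actin commonly used to mark myofibroblasts, was at 496, 571 and 440 CPM and then 461, 217 and 254 CPM, and did not pass the test (edgeR adjusted p = 0.0703). TAGLN, CNN1 and MYH11 also make up the 3 of 9 tested mural and smooth muscle markers that fell, MYH11 at or below 2.22 CPM and not called without donor 8, and RGS5, a defining mural gene, was at 0. The summed level of the mural list was 708 to 789 CPM at P2 and 369 to 639 CPM at P5; the part of mural cells in these falls was not tested.

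Proliferation genes fell more often than any other list. Of 33 tested genes for DNA replication and S phase 25 fell, of 38 mitosis and spindle genes 34 fell, and 0 of either list rose. The replication genes that fell most, EXO1, UHRF1 and CDC6, were 5.85-fold, 5.50-fold and 5.29-fold lower, and the mitotic kinesin KIF2C was 5.96-fold lower. UHRF1 was not called without donor 7 (edgeR adjusted p = 0.0563), with a log2 fold change of -2.41 there against -2.46 with all donors. TOP2A, the topoisomerase that resolves DNA before division, was at 122, 67.8 and 32.7 CPM in donors 4, 7 and 8 at P2 and at 24.8, 13.7 and 7.57 CPM at P5, 4.74-fold lower with an SE of 0.08 on the log2 scale (edgeR adjusted p = 0.00181). Donor 4 was highest and donor 8 lowest at both passages, and every donor fell. MKI67, the usual proliferation marker, went from 113, 64.6 and 22.8 to 23.6, 17.7 and 8.46 CPM. RRM2, a subunit of ribonucleotide reductase, went from 56.9, 28.0 and 9.81 to 6.45, 6.82 and 4.38 CPM, and PCNA, the replication clamp, from 119, 76.6 and 44.8 to 31.1, 30.8 and 26.9 CPM. Both lost their call without donor 7 (edgeR adjusted p = 0.193 and 0.104), although their log2 fold changes were -2.23 and -1.33 there. With all donors these were -2.20 and -1.34. Of 36 tested histone genes 11 fell and 1, H2BC5, rose. Among cells called G1, 0 histone genes passed both thresholds as lower, and their median log2 fold change was -0.26 against -0.85 over all cells. The sequences of histone genes are close to each other, so their reads may be split between copies.

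The shares of cells with these transcripts fell too. After thinning to 10000 UMIs per cell, MKI67 was seen in 31.6%, 15.9% and 6.10% of cells at P2 and in 5.58%, 3.22% and 2.61% at P5, and RRM2 in 29.1%, 13.3% and 4.98% and then in 3.80%, 2.95% and 1.53%. Shallower cells were left out, 12 to 42 per donor at P2 and 54 to 134 at P5; without thinning the MKI67 shares were 43.4%, 22.9% and 9.35% and then 7.51%, 4.61% and 3.55%. The deposited cell cycle calls did not follow these genes in each donor. The authors normalised each time point separately, with cell cycle effects regressed out. The scoring step itself is not given in the sources used here, and if cells were scored within each library, shares called G1 and results over cells called G1 may not be comparable between passages. Cells called G1 were 49.3%, 75.7% and 92.2% at P2 and 81.2%, 76.7% and 79.8% at P5, so that S and G2M calls together became fewer in donor 4 and more frequent in donor 8, whose S calls were 3.79% and then 14.6%. In donor 7 the S calls were 13.1% and then 16.6%, and the G2M calls 11.2% and then 6.66%. Among cells called G1, 6 replication genes and 9 mitosis genes were still called lower, and the medians of these lists were -0.56 and -0.55 on the log2 scale against -1.34 and -1.64 over all cells. MKI67 had a log2 fold change of -1.94 in cells called G1 against -1.88 over all cells. TOP2A and PCNA had log2 fold changes of -0.85 and -0.56 in cells called G1 and were not called. The RNA of MKI67 was seen in 37.7% and then 11.9% of the SCs of the SC cultures, so the 2 libraries differed the same way in those cells.

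**Figure D2:**
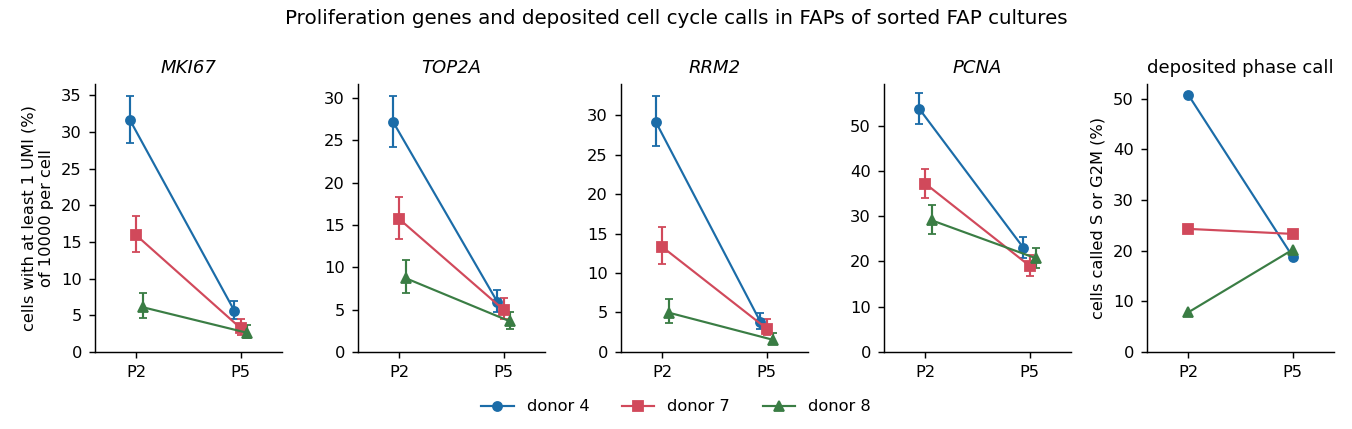
Share of FAPs with at least 1 UMI of MKI67, TOP2A, RRM2 and PCNA after each cell was thinned to 10000 UMIs (first 4 panels; bars are 95% Wilson intervals and cover counting error only) and share called S or G2M in the deposited table (last panel), by donor. MKI67 fell from 31.6%, 15.9% and 6.10% to 5.58%, 3.22% and 2.61%, whereas the deposited calls fell in donor 4 and rose in donor 8.

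Of 23 tested CDK inhibitors, D cyclins and p53 targets, 1 rose and 3 fell. CCND1 (cyclin D1) was at 365, 296 and 213 CPM and then at 170, 173 and 91.8 CPM, 2.05-fold lower; without donor 4 or donor 8 its log2 fold changes of -0.99 and -0.94 were short of the threshold. GADD45B, a stress-induced regulator, fell from 29.6, 36.9 and 22.4 to 14.8, 16.5 and 10.8 CPM. LMNB1 (lamin B1), whose loss accompanies senescence, was 2.29-fold lower over all cells, but it was not called without donor 4 or donor 7, and its log2 fold change among cells called G1 was -0.11. CDKN1A, the p53-induced inhibitor p21, had values of 97.4, 97.0 and 130 and then 197, 134 and 155 CPM, a log2 fold change of 0.58 that is under the threshold. ZMAT3, a p53 target, was the called rise, from 2.89, 2.59 and 2.71 to 5.65, 5.38 and 5.50 CPM, and was not called without donor 7 (edgeR adjusted p = 0.0577).

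Secreted signals and their receptors changed in several families. In the insulin-like growth factor (IGF) axis 3 of 13 tested members rose and 0 fell. IGFBP4, which binds IGFs, was at 45.3, 49.9 and 70.4 CPM and then at 106, 107 and 169 CPM, 2.29-fold higher. IGFBP5 was almost unseen at P2, at 0.352, 1.87 and 2.28 CPM, and stood at 23.0, 7.96 and 47.3 CPM at P5. This was a 16.02-fold difference with an SE of 0.60 on the log2 scale, and it was not called without donor 4 or donor 8 (edgeR adjusted p = 0.103 and 0.183). The ligand IGF1 was called higher at low levels, 0.141, 1.06 and 1.95 and then 0.831, 8.00 and 3.50 CPM, and not without donor 4 or donor 7 (edgeR adjusted p = 0.069 and 0.138).

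In the TGF-beta, BMP and activin family 3 of 30 tested members rose and 3 fell. The ligand TGFB2 rose in every donor from 10.6, 22.9 and 38.1 to 36.5, 66.8 and 119 CPM, 3.15-fold with an SE of 0.08 on the log2 scale. Its groups overlapped, with donor 8 highest and donor 4 lowest at both passages. The receptor TGFBR2, with a log2 fold change just over 1 (0.91 without donor 4), and INHBB, an activin subunit at 2.76 CPM or below and not called without donor 7, also rose. ID1 and ID3, targets of BMP signalling, fell, ID3 not without donor 7 or donor 8, and ID1 from 25.7, 25.8 and 31.1 to 7.38, 9.45 and 9.95 CPM. FSTL3, which binds activins, fell from 62.0, 43.0 and 28.0 to 20.7, 16.01 and 11.5 CPM.

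Of 20 tested Wnt ligands and modulators 7 rose and 1, WNT5B, fell, the latter not without donor 4 or donor 7. The called rises included RSPO3, an R-spondin that strengthens Wnt signals, from 16.03, 8.71 and 17.2 to 39.7, 16.2 and 48.9 CPM. WNT2, DKK2, SFRP2 and WNT16 were called at low levels, the highest of their 24 values being 10.3 CPM, and WNT16 was not called without donor 7 or donor 8. RSPO1 and NKD1 were also called at 7.57 CPM or below, RSPO1 in none of the fits that left out a donor and NKD1 not without donor 7. SFRP4, the list's most abundant member, was at 986, 1467 and 3794 CPM and then 601, 956 and 1202 CPM, a log2 fold change of -0.99.

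Among other growth factors and receptors 3 of 34 tested members rose and 3 fell. FGF7, a growth factor that acts on epithelia, was at 25.1, 37.7 and 64.1 CPM and then at 80.1, 167 and 132 CPM; it was 3.07-fold higher but not called without donor 4 (edgeR adjusted p = 0.0822). PDGFD and HGF rose at 7.65 CPM or below, and neither was called without donor 7, nor HGF without donor 8. DUSP4, a phosphatase of the MAP kinase pathway, fell at 1.52 CPM or below, was not called without donor 7 (edgeR adjusted p = 0.114) or under DESeq2, and was not tested without donor 4. FGFR1, the fibroblast growth factor receptor, fell from 20.6, 18.4 and 21.6 to 4.95, 9.67 and 4.27 CPM, 3.37-fold, with no overlap, and was not called without donor 4 (edgeR adjusted p = 0.0832). LIFR, the receptor of leukaemia inhibitory factor, fell from 2.33, 5.27 and 11.3 to 1.395, 1.88 and 1.88 CPM, and was not called without donor 7 (edgeR adjusted p = 0.11).

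Immediate early genes fell in 5 of 24 tested members and rose in 1, SOCS3, which was at 1.61 CPM or below and was not called without donor 7 or donor 8. FOS was at 49.7, 82.3 and 79.8 CPM and then at 20.4, 26.9 and 17.1 CPM, and FOSB at 4.90, 4.16 and 3.85 and then at 0.532, 0.6998 and 0.192 CPM. Both sets were fully apart, with falls of 3.25-fold and 9.25-fold. DUSP1, a phosphatase, fell from 240, 332 and 224 to 123, 133 and 97.1 CPM, and NR4A1, a nuclear receptor, was 3.24-fold lower. EGR3 fell at 1.34 CPM or below and was not called without donor 4 or donor 7. JUNB, which pairs with FOS proteins, had a log2 fold change of -0.04, and EGR1 one of -0.41.

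Adipogenic and lipid genes fell in 3 of 20 tested members and rose in none. PPARG, the main regulator of adipogenesis, was low at both passages, at 1.13, 1.70 and 4.12 CPM and then at 0.432, 0.831 and 0.807 CPM. It was 3.12-fold lower and not called without donor 8 (edgeR adjusted p = 0.0502). KLF15, a factor of late adipogenesis, fell from 6.66, 8.75 and 9.11 to 2.96, 3.98 and 3.50 CPM, and APOE from 45.2, 19.0 and 36.6 to 13.0, 9.36 and 7.49 CPM (not called without donor 4: edgeR adjusted p = 0.0628). Of 31 tested redox and metallothionein genes 3 fell: MT2A, from 1833, 1651 and 626 to 408, 929 and 216 CPM, MT1E, and GPX3, a secreted glutathione peroxidase. MT2A lost its call without donor 8 (edgeR adjusted p = 0.125), MT1E without donor 4 or donor 8, and GPX3 lost it without donor 4 and without donor 7 (edgeR adjusted p = 0.14 and 0.109).

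**Figure D3:**
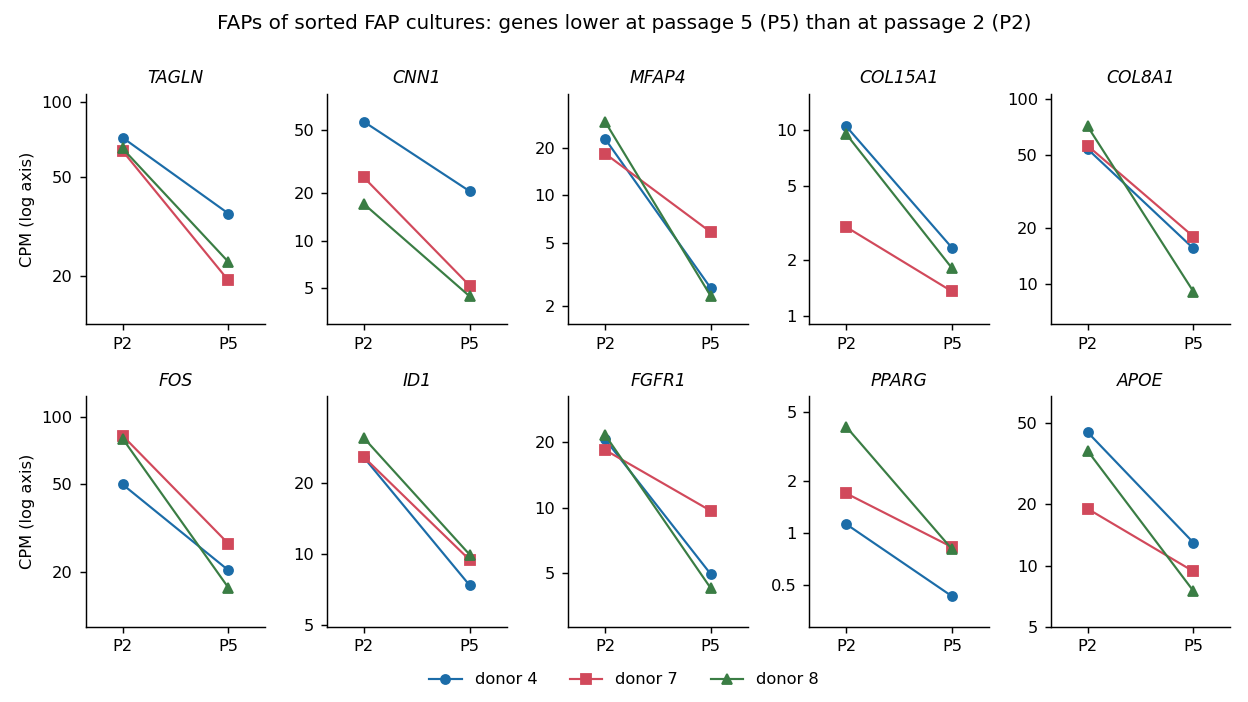
CPM (log axis, a separate range in each panel) of 10 genes at P2 and P5, with 1 line per donor. Each line falls: TAGLN from 72.1, 63.7 and 65.2 to 35.7, 19.2 and 22.8 CPM, and FGFR1 from 20.6, 18.4 and 21.6 to 4.95, 9.67 and 4.27 CPM.

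Among called genes that averaged at least 10 CPM at P5, the largest rises included genes outside the matrix lists. CYP27B1, the enzyme that activates vitamin D, was at 6.27, 3.74 and 3.09 CPM at P2 and at 47.0, 41.9 and 37.0 CPM at P5, 9.75-fold higher with an SE of 0.16 on the log2 scale (edgeR adjusted p = 0.00222). At 10000 UMIs per cell it was seen in 5.80%, 3.07% and 2.99% of FAPs at P2 and in 23.9%, 20.4% and 19.0% at P5, against 0.574% and 0.718% of the SCs of SC cultures in the same libraries (median depths of 25083 and 21298 UMIs). SCN1A, a neuronal sodium channel subunit, rose from 1.73, 4.08 and 4.99 to 19.0, 51.8 and 49.6 CPM. It was also seen in 36.4% and 47.8% of the SCs at P2 and P5.

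PRSS35, a serine protease homologue, rose from 2.61, 2.80 and 10.2 to 25.7, 59.0 and 75.4 CPM, and was seen in 2.47%, 1.42% and 5.60% of FAPs and then in 14.8%, 26.2% and 34.6%, against 0.0319% and 0.790% of SCs. CRABP1, which binds retinoic acid, went from 0.211, 1.57 and 0.867 to 4.88, 14.1 and 18.0 CPM. CDH1 (E-cadherin, an epithelial adhesion protein) went from 0.211, 0.977 and 1.79 to 5.38, 12.8 and 14.9 CPM. CCL11 (eotaxin) went from 2.64, 2.38 and 1.08 to 28.0, 18.8 and 6.07 CPM; it was seen in 2.10%, 1.53% and 0.996% of FAPs at P2 and in 5.89%, 4.6% and 2.46% at P5, against 0.351% and 0.467% of SCs. TFAP2A, a transcription factor, was 5.18-fold, PLPP1, a lipid phosphatase, 5.09-fold and PTGS1, the cyclooxygenase COX-1, 5.05-fold higher. NTS (neurotensin) was 5.66-fold higher and was not called without donor 4 or donor 7 (edgeR adjusted p = 0.103 and 0.176). LIMS2, an adaptor of focal adhesions, was among the largest falls outside the proliferation genes, from 11.03, 22.5 and 22.5 to 3.59, 4.77 and 2.92 CPM.

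Several lists showed no called member. Over all genes tested 1.87% were called higher and 3.61% lower, so 0 calls in the shorter lists do not show that their genes were unchanged. Of 28 interferon-stimulated genes, 30 genes of cholesterol and fatty acid synthesis, 22 of the unfolded protein response, 28 of ATF4 and amino acid stress, 81 cytosolic ribosomal proteins, 78 nuclear genes of oxidative phosphorylation and 13 mitochondrially encoded genes, 0 were called in either direction. Their median log2 fold changes ran from -0.20 for cholesterol synthesis to 0.50 for the mitochondrially encoded genes, whose summed level was 28710 to 30130 CPM at P2 and 34570 to 40240 CPM at P5. At an adjusted p under 0.05 alone, 1221 of all 11791 genes were higher and 1390 lower, so a few such genes do not set a list apart. By that rule 31 ribosomal protein genes and 10 mitochondrially encoded genes were higher and 12 nuclear genes of oxidative phosphorylation were lower. In the unfolded protein response 7 were lower and 3 higher, in cholesterol and fatty acid synthesis 5 were lower and 0 higher, and of the interferon-stimulated genes 4 were lower and 0 higher. GAPDH had a log2 fold change of 0.01. In glycolysis and hypoxia 1 of 30 fell, SLC16A3, a lactate transporter that was not called without donor 7, in Notch 0 of 9 were called, and in complement 1 of 15 rose, C6, which was not called without donor 4 or donor 7. Among the 25 tested chemokines and cytokines 1, VCAM1, rose and 1, CSF2, fell, and each lost its call without donor 7 or donor 8. Macrophage markers summed to 18.1 to 20.2 CPM and then 16.2 to 19.9 CPM, and the endothelial TEK, the called member of its list, stood at 0.532 to 1.23 CPM at P5 and was called in none of the fits that left out a donor.

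Of 20 tested YAP-TEAD targets 1, TGFB2, rose, and the classical targets CCN1 and CCN2 had log2 fold changes of -0.49 and -0.72. Of 14 osteochondrogenic and tendon genes 2 rose: FMOD, and ALPL, the alkaline phosphatase of mineralising cells, from 3.03, 11.3 and 15.3 to 11.4, 36.8 and 33.9 CPM. In the hyaluronan matrix 1 of 12 rose, ITIH5, from 4.30, 6.07 and 10.35 to 15.5, 18.2 and 28.9 CPM, and 1 fell, HAPLN3, whose fall of 1.01 on the log2 scale was under the threshold without donor 4 or donor 7. The integrin ITGB8 and the positional factor HOXB2 were the called rises among 15 and 31 members, at 3.19 and 2.36 CPM or below. HOXB2 was called in none of the fits that left out a donor, and ITGB8 not without donor 4 or donor 7. Of 33 translation and ribosome biogenesis factors, 2 lymphatic endothelial markers and 1 glial marker tested, 0 were called; of the translation factors 13 were lower and 3 higher at an adjusted p under 0.05 alone, with a median log2 fold change of -0.44. PRRX1, a transcription factor of limb and stromal mesenchyme, was at 361, 695 and 925 CPM and then at 1107, 1141 and 1167 CPM; the groups were apart, but the test did not pass (edgeR adjusted p = 0.0507).

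**Figure D4:**
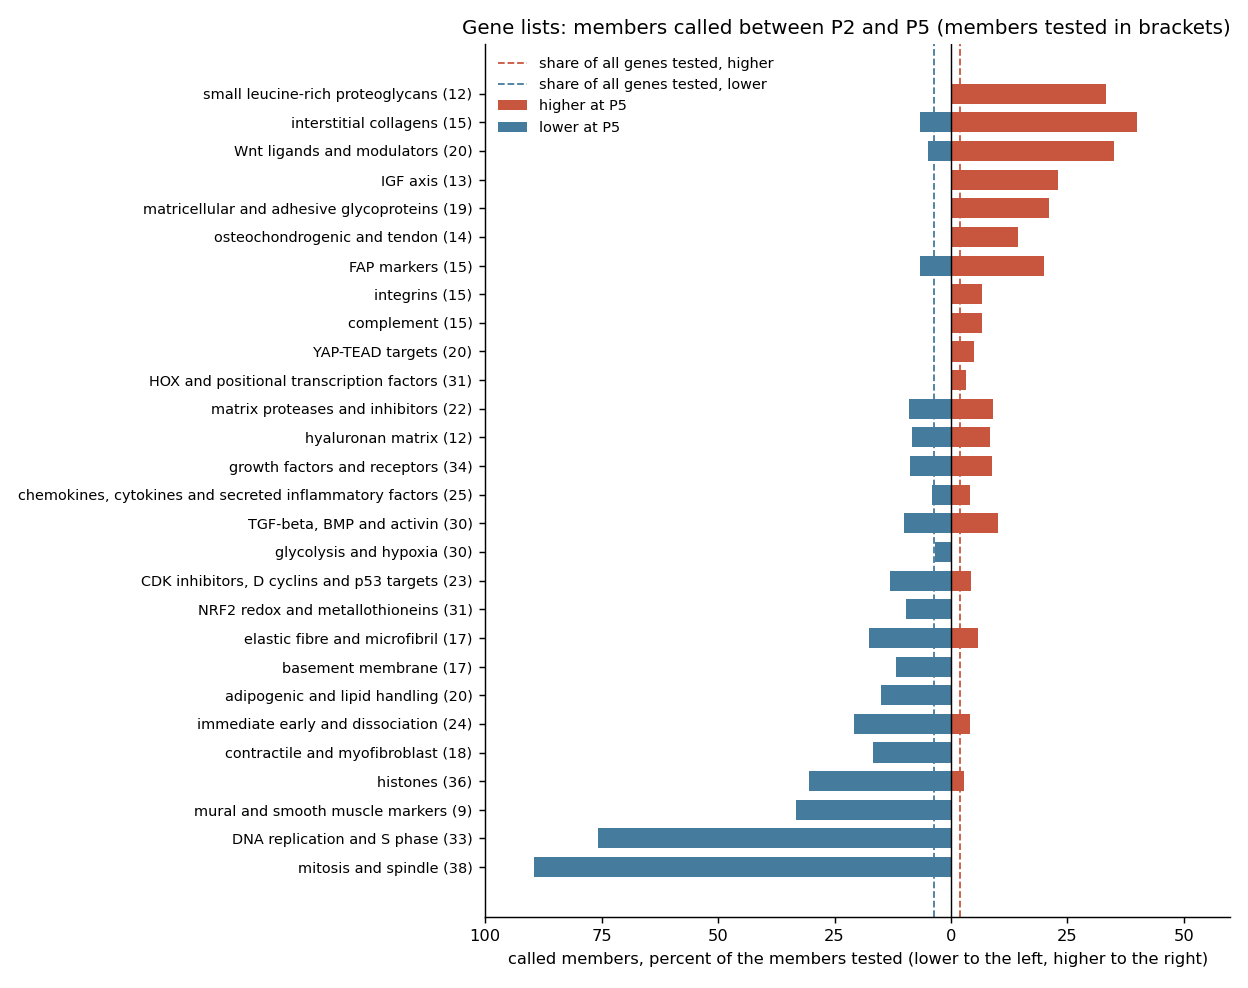
Members called higher (right) or lower (left) at P5, as a percent of the members tested, for the lists with at least 5 tested members and at least 1 called; the dashed lines are the shares over all 11791 genes, 1.87% higher and 3.61% lower. Interstitial collagens (6 of 15) and Wnt genes (7 of 20) reach farthest to the right, and mitosis genes (34 of 38) farthest to the left.

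The change from P2 to P5 was then set against that of FAPs in unsorted cultures, in 1 model over 12 sums. Both kinds of culture were in the same 2 libraries, but their donors and coatings differ along with the sort, and these cannot be told apart. A difference was called at an adjusted p under 0.05 and a size of more than 1 on the log2 scale. Of 12141 genes tested, 134 (1.1%) were called with a higher log2 fold change in the sorted FAP cultures and 246 (2.03%) with a lower one. With the donor left out of the model these were 22 and 65, and 91 and 180 without donor 7. Of the 15 interstitial collagens tested in sorted cultures 6 differed, all upward. COL1A1 had log2 fold changes of 1.61 in sorted and 0.52 in unsorted cultures and COL1A2 of 1.45 and 0.42. COL5A2, COL16A1 and COL6A3 changed by 1.01, 1.25 and 0.84 against -0.11, -0.32 and -1.41, and COL6A6 was at 1.01 CPM or below in sorted cultures. The differences of 1.10 for COL1A1 and 1.04 for COL1A2 were near the threshold and were not called without donor 4 or without donor 7, that for COL16A1 not without donor 4 and that for COL6A6 not without donor 7. COL11A1 and ASPN had log2 fold changes of 2.56 and 2.26 in sorted and 2.00 and 2.03 in unsorted cultures, and their differences of 0.55 and 0.23 did not pass (edgeR adjusted p = 0.436 and 0.798).

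The elastic fibre list went the other way, with 1 of its 17 tested members, FBN2, differing upward and 5 downward. Over all 12141 genes 1.1% differed upward and 2.03% downward. MFAP4 had log2 fold changes of -2.77 in sorted and 0.60 in unsorted cultures (without donor 4, edgeR adjusted p = 0.0651), and LTBP2 of -1.23 and 0.51. The other downward members, ELN, LTBP3 and MFAP5, had differences of -1.31, -1.92 and -3.28. The differences of FBN2 and MFAP5 were not called without donor 7. Of the 34 entries of the growth factor list tested in sorted cultures 8 differed downward and 0 upward, NRG1 being counted under 2 gene identifiers. FGFR1 was the largest, with -1.75 in sorted and 1.30 in unsorted cultures, a difference of -3.04 with an SE of 0.32 (edgeR adjusted p = 0.0035). FGF2, BDNF and LIFR differed by -1.46, -1.51 and -2.03, FGF2 and LIFR not without donor 7 and FGF2 not without donor 8. Of the 30 members of the TGF-beta family tested in sorted cultures 2 differed upward, TGFB2 and INHBB, and 6 downward. Among the latter were ID1, ID3 and GREM1, the last at -3.87, with log2 fold changes of 0.42 in sorted and 4.29 in unsorted cultures. The difference of INHBB was not called without donor 4 or donor 7, and that of ID3 not without donor 7.

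Of the 33 replication, 38 mitosis and 36 histone genes tested in sorted cultures, 0 had a change that differed by the same rule. Over all genes 1.1% differed upward and 2.03% downward, so 0 calls in lists of this size do not show an equal change. The list medians were -1.34, -1.64 and -0.85 in sorted and -0.90, -1.13 and -0.77 in unsorted cultures. CCND1 did differ, with log2 fold changes of -1.03 and 0.78. CYP27B1, PRSS35, SCN1A, CRABP1, CCL11 and IGFBP5 rose by 3.06 to 4.00 on the log2 scale in sorted cultures and had values of -0.54 to 0.22 in unsorted cultures, and all 6 differences were called. Other large rises did not differ by this rule. CDH1 had log2 fold changes of 3.60 in sorted and 1.21 in unsorted cultures (difference 2.39, edgeR adjusted p = 0.1055). NTS had 2.50 and 3.28, and TFAP2A 2.37 and 1.66. For CYP27B1 and CCL11 the levels at P2 differed as well. For IGFBP5, CRABP1, SCN1A and PRSS35 the P2 values of sorted and unsorted cultures overlapped. With sorted and unsorted sums scaled together, unsorted FAPs held CYP27B1 at 15.5, 12.02 and 37.3 CPM in donors 1, 2 and 9, and CCL11 at 7.05, 9.28 and 13.7 CPM, above all sorted values at P2. Of the 6 called differences, that of IGFBP5 was not called without donor 4 or donor 8 (edgeR adjusted p = 0.0628 and 0.129).

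**Figure D5:**
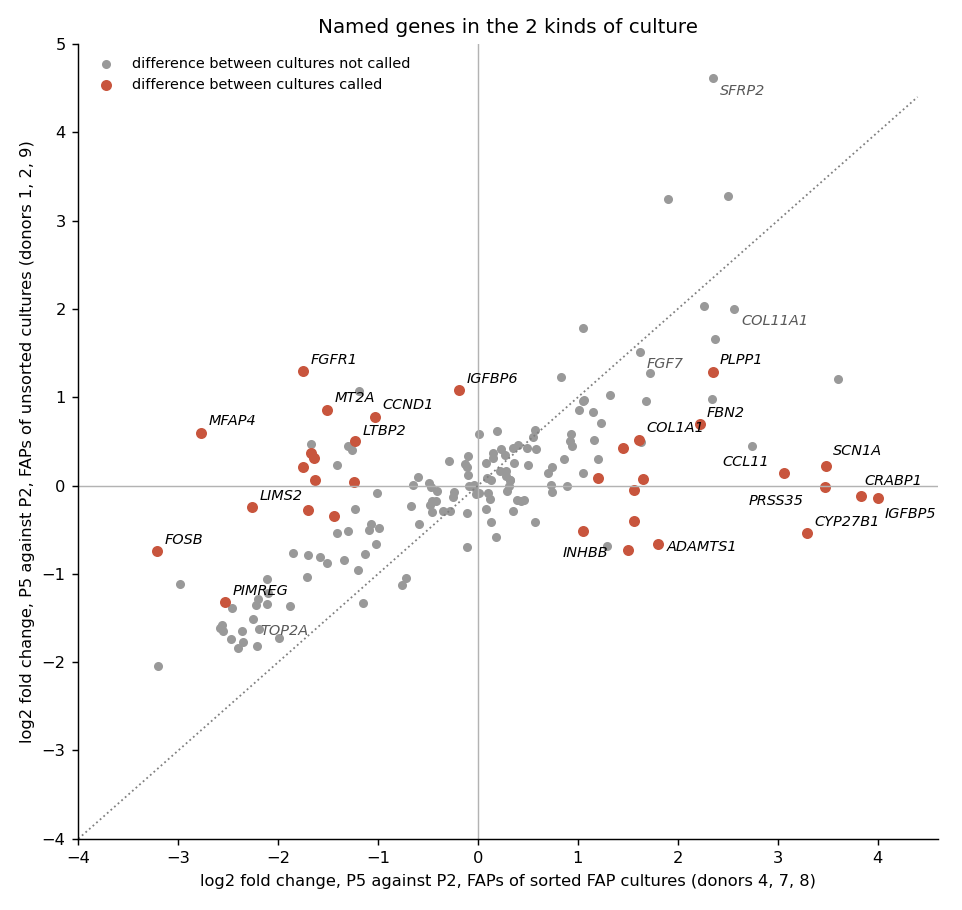
Log2 fold change, P5 against P2, of the named genes in FAPs of sorted FAP cultures (x axis) and of unsorted cultures (y axis), 1 point per gene tested in both; red points are the 33 named genes whose change differed, and the dotted line marks equal change. COL11A1 (2.56 and 2.00) lies near the line, CYP27B1 (3.29 and -0.54) far below it and FGFR1 (-1.75 and 1.30) far above it.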

How the data were processed

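UMI counts per gene and cell, as deposited, were made by the authors with Cell Ranger 6.0.1 on the bovine build ARS-UCD1.2 (per the labels and submitters' processing notes); cells were assigned to donors by genotype, filtered and labelled by the authors, and doublets by genotype (19.6% and 19.1% of barcodes at P2 and P5) were not in the cell table. The deposited percent of mitochondrial UMIs was used as given. The files of each library combine its 2 sequencing runs. Raw UMIs of FAPs were summed per donor and passage, which gave 6 sums of 17945330 to 30877722 UMIs, and tested in R 4.3.3 with edgeR 4.0.16 (filterByExpr, TMM factors, quasi-likelihood F test, donor as block, 2 residual degrees of freedom). An SE is the absolute log2 fold change divided by the square root of the F statistic. CPM are scaled by TMM factors unless stated. The difference from unsorted cultures was the interaction of passage and culture over 12 sums. Sums of the same donor deviated together, with correlations of 0.578, 0.535 and 0.641 across genes, so the block was kept; the numbers are the donor animals. Each sum is 1 culture of 1 animal.

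Members and the 43 gene lists were chosen with earlier results of these data known. Genes were named by rule: the 12 largest changes each way among called genes with a symbol, alike in 3 of 3 donors and at 10 CPM or more at the higher passage; per list, up to 4 called members with the largest change and the 2 with the highest level; and PDGFRA, ITGA5, ITGA7, MYF5, DES, MKI67, CDKN1A and PPARG. Others (COL5A2, COL16A1, COL6A3, COL6A6, RSPO3, RSPO1, NKD1, TGFBR2, PDGFD, HGF, ID3, DUSP1, SOCS3, WNT5B, H2BC5, ELN, LTBP3, MFAP5, FGF2, BDNF, NRG1, GREM1, PTPRC and RGS5) were named as list members after their values were seen. Wilson intervals (95%) cover counting error only. Scripts were tested on simulated data. DESeq2 1.42.0 and other settings were tried as alternatives. The other libraries were not used, except P8 in the closing section. Gene coordinates and sequences are not given here.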

Additional observations from a re-analysis of the deposited data

Results flagged for a closer look

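The change from P2 to P5 differed between FAPs of sorted FAP cultures and FAPs of unsorted cultures for 33 of the 176 named genes. This was tested as the interaction of passage and culture in edgeR's quasi-likelihood test. A difference was called at an adjusted p under 0.05 and a size of more than 1 on the log2 scale. Over all 12141 genes tested, 1.1% differed upward and 2.03% downward. Most called named genes were picked for their change in the sorted sums. Those sums also enter this test, so the differences of these genes may be overstated. Differences are the log2 fold change in sorted minus that in unsorted cultures, with 3 donors each. The change was higher in sorted cultures for 17 genes. Genes with log2 fold changes of -0.54 to 0.22 in unsorted cultures had differences of 4.18 for IGFBP5, 3.95 for CRABP1, 3.84 for CYP27B1, 3.49 for PRSS35, 3.27 for SCN1A and 2.96 for CCL11. Matrix genes and proteases followed, with 2.48 for ADAMTS1, 1.62 for ADAMTS4, 1.58 for CCN4, 1.53 for FBN2, 1.10 for COL1A1 and 1.04 for COL1A2. The remaining upward differences were 2.26 for INHBB, 1.99 for ALPL, 1.60 for TGFB2, 1.11 for IGFBP4 and 1.06 for PLPP1.

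The change was lower in sorted cultures for 16 genes. Microfibril and matrix genes had differences of -3.35 for MFAP4, -1.95 for TIMP4, -1.73 for LTBP2 and -1.27 for LAMA2. Receptors and signalling genes had -3.04 for FGFR1, -2.03 for LIFR, -1.68 for ID1, -1.26 for IGFBP6 and -1.09 for FSTL3. Regulators had -2.44 for FOSB, -1.95 for PPARG, -1.80 for CCND1 and -1.40 for FOS. The others were -2.36 for MT2A, -2.0 for LIMS2 and -1.20 for PIMREG, a mitosis gene with log2 fold changes of -2.53 in sorted and -1.32 in unsorted cultures. IGFBP6, named for its level, was the gene among the 33 that was not called in sorted cultures themselves. Its log2 fold change was -0.19 there against 1.08 in unsorted cultures. Donor, coating and sort differ together between the cultures and cannot be told apart. Donors 4, 7 and 8 of the sorted cultures were left out in turn, and donors 1, 2 and 9 were not. Of the 33 differences 21 were called in all of these fits. Not called were 8 without donor 4, 7 without donor 7 and 2 without donor 8. Without the donor block 10 were called.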

How the results depend on the processing

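The change from P2 to P5 in sorted FAP cultures gave 220 higher and 426 lower genes. Without the donor block these were 46 and 48, and for the difference from unsorted cultures 22 and 65 in place of 134 and 246; all 94 genes called without the block in sorted cultures were also called with it, while 79 of the 100 called named genes were not called without it. At an adjusted p alone the counts were 1221 and 1390. Cells called G1 gave 245 lower genes, 183 of them shared. Leaving out donor 4, 7 or 8 gave 141 to 285 higher and 249 to 485 lower genes, the lowest without donor 7. For the difference such fits gave 91 to 163 and 180 to 293, and donors 1, 2 and 9 were not left out. A fit without a donor has fewer residual degrees of freedom, so a call can be lost with little change in the log2 fold change. The other settings (DESeq2, median-of-ratios factors, library size alone, no filter, thinning, 1 fit over 12 sums) kept each count within 1.5 times. In sorted cultures they ended the calls of 5, 2, 7, 12, 5 and 4 named genes, in that order. Scaling by library size alone moved the median of all genes from 0.0086 to -0.10 on the log2 scale and the share of calls that were higher from 34.1% to 24.5%; that share was 48.9% without the block. Of the named genes, 0 reversed a call under these settings. With the donor as a block, 2 residual degrees of freedom and 1 library per passage, p-values measure how far the change varies between donors. They do not measure the spread between libraries.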

Other observations

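Genes outside the lists also moved, and were picked here after their values were seen. PTN (pleiotrophin) rose from 186, 425 and 222 to 895, 941 and 781 CPM in donors 4, 7 and 8, and the axon guidance receptor UNC5C from 3.21, 6.54 and 7.21 to 11.5, 23.5 and 32.7 CPM. PTX3, a secreted pentraxin, fell from 2039, 3170 and 2504 to 994, 1089 and 1001 CPM. The prostaglandin genes HPGD and PTGDS fell by 1.64 and 2.08 on the log2 scale, and in unsorted cultures by 2.17 and 1.78. The transcription factor MEOX1 fell from 115, 58.0 and 68.0 to 19.9, 31.6 and 14.2 CPM, and the LIM protein CSRP2 from 101.1, 131 and 71.9 to 30.4, 30.8 and 11.95 CPM; their log2 fold changes in unsorted cultures were 0.77 and -0.11. MEOX1 was not called without donor 4 or donor 8, and PTGDS not without donor 4.

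The same donors at passage 8 (P8; 314, 301 and 310 FAPs, 1 further library) did not continue every change, when P2, P5 and P8 were scaled together. MKI67 was at 91.5, 51.2 and 23.1 CPM at P8, against 111, 63.4 and 22.7 at P2 and 23.3, 17.5 and 8.39 at P5, in the same order of donors. FOS was at 49.0, 80.9 and 79.3 CPM at P2, 20.2, 26.6 and 16.9 at P5 and 65.7, 115 and 103 at P8. CCND1 was at 359, 291 and 211 CPM at P2, 168, 171 and 91.1 at P5 and 376, 303 and 223 at P8. MT2A was at 1806, 1623 and 622 CPM at P2, 403, 919 and 215 at P5 and 1529, 1331 and 1223 at P8, and CYP27B1 at 6.18, 3.67 and 3.07, then 46.5, 41.5 and 36.7, then 7.39, 4.55 and 5.98 CPM. For each of these genes the mean over donors at P8 was nearer to P2 than to P5 on the log2 scale. FOS, CCND1 and CYP27B1 were higher at P8 than at P2 in 3 of 3 donors, and MT2A was so in donor 8. COL1A1, at 5201, 15300 and 13960 CPM at P8, lay between P2 and P5 in 3 of 3 donors and nearer to P2 on the same measure, and P8 was nearer to P2 for 4 of the 7 called interstitial collagens.

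Other changes were still present at P8. COL11A1 was at 272, 668 and 544 CPM, CDH1 at 4.82, 16.8 and 21.6, ID1 at 6.78, 6.72 and 7.04, MFAP4 at 1.81, 4.15 and 4.91 and FGFR1 at 4.52, 11.1 and 4.70 CPM, all nearer to P5 than to P2. On the mean of log2(CPM + 1) over donors, P8 lay nearer to P2 for 121 of the 220 genes higher at P5 and for 301 of the 426 lower ones, among them 25 of 25 replication genes and 33 of 34 mitosis genes. These genes were picked for their difference between P2 and P5, each passage is 1 library, and no test was made.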
